A study of Mus musculus with 2 samples.

Results

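To describe how RNA-binding and splicing regulators of neurons compared between teratomas of normal and Sox2-mutant embryonic stem cells (ESCs), 10 genes were taken by symbol from the 45777 genes of the RNA-seq table. Of these, 9 are expressed mainly in neurons or increase as neurons form (Elavl2, Elavl3, Elavl4, Nova1, Nova2, Rbfox1, Rbfox3, Srrm4 and Ptbp2), and Ptbp1 is their counterpart in progenitors and non-neuronal cells. The table holds 1 library from a teratoma labelled WT, grown from E14 cells, a mouse ESC line with normal Sox2, and 1 library from a teratoma of E14-Sox2TA/WT cells. The latter carry Sox2 T258A, in which alanine replaces a threonine that can be O-GlcNAcylated, on 1 allele, with the other allele wild type, and come from clones picked after CRISPR/Cas9 editing. Both kinds of cell had been injected under the skin of BALB/c-nu mice, a strain without a thymus, and tumours were removed on day 14. The sources used here do not say whether a library came from 1 tumour or several, or how many clones it represents, and the mouse tissue of the host is also counted on a mouse annotation. With 1 library per group there is no replicate error, and every difference below is one between 2 libraries, called here the E14 library and the mutant library.

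A teratoma is a tumour in which ESCs differentiate into a disorderly mixture of tissues, nervous tissue among them. As a precursor cell becomes a neuron, it changes the proteins that decide which exons are joined, where messages end and how long they last. Ptbp1 holds many neuronal exons out of mRNA in most cells, and it is lost as neurons form, first in favour of its paralogue Ptbp2 and later of the NOVA, RBFOX and ELAV proteins and the microexon factor Srrm4. These proteins are widely used as signs of neuronal identity, and the protein of Rbfox3 is the antigen NeuN.

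Of the 9 neuronal genes, 8 were reduced in the mutant library by more than 2-fold, 0 were higher by that amount, and Ptbp2 was nearly equal in both. A gene was called lower or higher when its TPM, its transcript abundance after division by transcript length and scaling to a fixed sum, differed by more than 2-fold and was at least 10 in 1 library or both. By this rule 18.7% of the 11578 genes with such a TPM were lower and 10.8% were higher. All 8 also had their whole counting interval past 2-fold, which 16.5% of genes had in that direction and 8.7% in the other. Nova2, Srrm4, Rbfox1 and Rbfox3 reached a TPM of 10 in the E14 library alone, and so passed through the library in which they were high. With a TPM of 10 required in both libraries, the neuronal genes left were Elavl2, Elavl3, Elavl4, Nova1 and Ptbp2. Of these, 4 were called lower, all but Ptbp2. The share of all genes called under this stricter filter was not counted, here or for the lists below. The 8 genes ranged from 2.27-fold lower for Elavl4 to 7.53-fold lower for Nova2, and their TPM summed to 319 and 80.5 in the E14 and the mutant library. Ptbp1 differed in the opposite direction, by 1.22-fold. In a bulk sample such as this, fewer cells of a type and less RNA per cell cannot be told apart.

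On the scale of log2(TPM + 1), the median difference over the 9 neuronal genes, E14-Sox2TA/WT minus E14, was -1.94, with a range from -2.67 to -0.04. The median difference was -0.058 over the 18558 genes whose TPM reached 1 in either library. The 8 genes lay between percentiles 0.889 and 12.0 of those genes, counted from the most reduced, whereas Ptbp2 stood at percentile 50.6 and Ptbp1 at 64.9. Counted against Ptbp1 in the same library, where the scaling of the libraries largely cancels, the median difference of the 9 was -2.22.

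**Figure D1:**
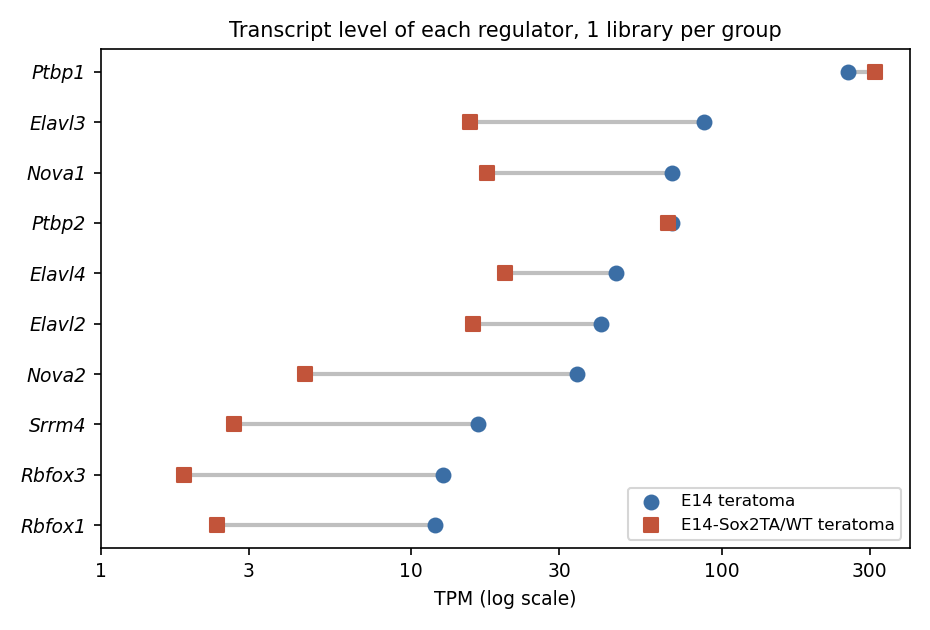
TPM of the 10 regulators in the E14 and E14-Sox2TA/WT (mutant) teratoma libraries on a log axis, 1 library each, ordered by E14 level, with a grey line joining the 2 values of a gene. The 8 genes from Elavl2 to Srrm4 were 2.27- to 7.53-fold lower in the E14-Sox2TA/WT library, while Ptbp2 (69.4 and 67.2) and Ptbp1 (256 and 312) stayed within 2-fold.

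The ELAV-like proteins Elavl2, Elavl3 and Elavl4, also called HuB, HuC and HuD, bind U-rich stretches of mRNA and stabilise messages or alter their splicing in neurons. Elavl3, found in most neurons, lies on chromosome 9 of GRCm38 (22015005 to 22052146, minus strand). It had 10677 reads and a TPM of 87.8 in the E14 library, against 2123 reads and a TPM of 15.5 in the mutant library. It was thus 5.66-fold lower (95% Clopper-Pearson interval 5.40 to 5.93, which covers counting error only, as do all intervals here). Elavl2, expressed in neurons and also in germ cells, lies on chromosome 4 (91211533 to 91400108, minus strand) and had TPM values of 40.8 and 15.8, or 2.58-fold lower (2.44 to 2.72). Elavl4, which marks young and mature neurons and sensory ganglia, lies on the same chromosome (110203737 to 110351939, minus strand) and had TPM values of 45.6 and 20.1, or 2.27-fold lower (2.16 to 2.39). Elavl4 was 1.98-fold lower on FPKM and 1.97-fold lower with counts scaled by library total, and was not called on either.

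The ELAV genes differed among themselves in TPM ratio by more than counting error. The ratio of Elavl4 to Elavl3 was 0.519 in the E14 and 1.29 in the mutant library, a change of 2.49-fold (2.32 to 2.67), which was 1.41-fold once corrected for length and GC content. Elavl3 was the highest of these genes in the E14 library. In the mutant library Elavl4 was the highest, and Elavl2 and Elavl3 had overlapping intervals. The broadly expressed paralogue Elavl1, or HuR, had TPM values of 44.6 and 52.2, which is 1.17-fold higher (1.13 to 1.21). The neuronal genes made up 79.6% of the ELAV family TPM in the former and 49.6% in the latter, and Elavl3 alone went from 40.1% to 15.0%.

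**Figure D2:**
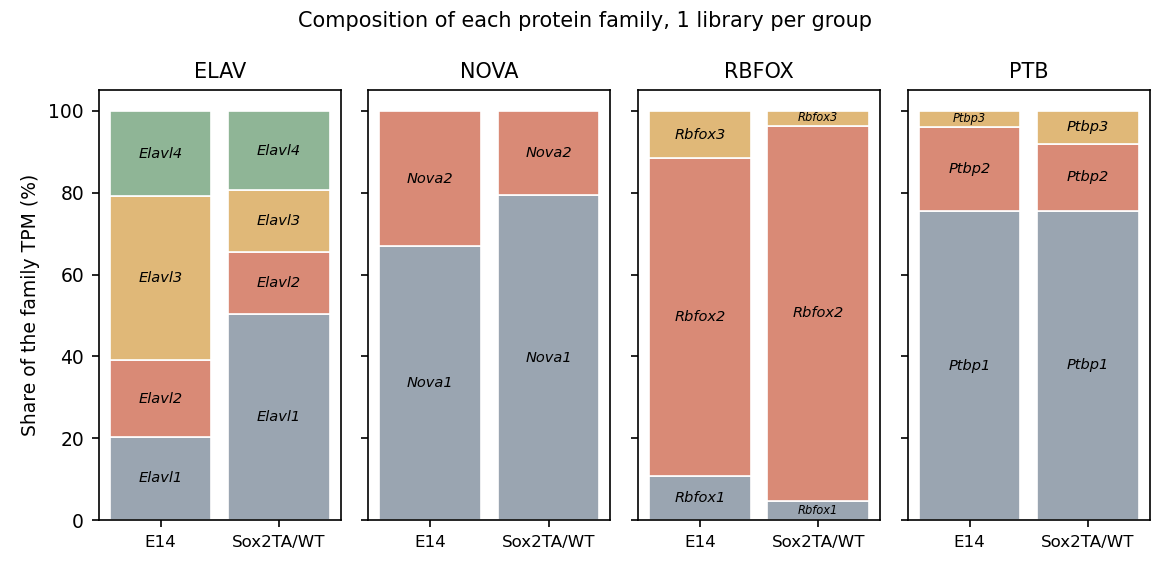
Share of each family TPM taken by each gene in the 2 libraries. Elavl1 took 20.4% (E14) and 50.4% (E14-Sox2TA/WT) of the ELAV TPM, Rbfox2 took 77.6% and 91.7% of the RBFOX TPM, and Ptbp1 took 75.6% of the PTB TPM in both.

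Nova1 and Nova2 bind clusters of YCAY in pre-mRNA and direct the splicing of synaptic transcripts, and they were first known as antigens in a paraneoplastic movement disorder. Nova1 (chromosome 12, 46697895 to 46819480, minus strand), which predominates in hindbrain and spinal cord, had 7534 and 2069 reads and TPM values of 69.4 and 17.6. It was 3.95-fold lower (3.76 to 4.15) in the mutant library. Nova2 (chromosome 7, 18925888 to 18965319, plus strand), the main form in the cortex, had 6902 and 1024 reads and TPM values of 34.3 and 4.55. At 7.53-fold lower (7.05 to 8.05) it was the most reduced of the 10 regulators by TPM ratio, but once corrected for length and GC content it was 4.17-fold lower, less than Nova1 at 4.87-fold. The amount of Nova2 per Nova1 was 0.494 in the E14 library and 0.259 in the other, 1.91-fold lower (1.75 to 2.07). This direction turned under that correction, with Nova2 per Nova1 at 1.17 of its E14 value. Of the exon sequence of Nova2, 31.7% is overlapped on the opposite strand by Gm26821, which has no row of that name in the table, and the sources used here do not say if reads were counted by strand.

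RBFOX proteins recognise UGCAUG and promote or repress exons in neurons and muscle. Rbfox1, found in neurons, heart and skeletal muscle, spans 1528 kb of chromosome 16 (5884793 to 7412480, plus strand). It had 1690 and 417 reads and TPM values of 11.9 and 2.37, and was 5.02-fold lower (4.51 to 5.61) in the mutant library. Rbfox3, whose protein marks mature neurons, lies on chromosome 11 (118489760 to 118911597, minus strand). It had 1277 and 232 reads, the fewest of the 10 genes, with TPM values of 12.6 and 1.86, and was 6.81-fold lower (5.91 to 7.86). Both genes had about the same TPM in the E14 library, with overlapping intervals, whereas Rbfox3 was the lower of the pair in the mutant library. Rbfox2, the paralogue also expressed in ESCs and mesenchyme, had TPM values of 85.0 and 46.7 and did not pass the 2-fold rule. Together Rbfox1 and Rbfox3 supplied 22.4% and 8.31% of the family TPM.

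Srrm4, also known as nSR100, promotes the inclusion of neuronal microexons and can act on the transcript of Rest, the repressor of neuronal genes in other cells. Srrm4 (chromosome 5, 116439268 to 116592562, minus strand) had 2961 and 583 reads and TPM values of 16.4 and 2.70, which is 6.08-fold lower (5.56 to 6.65) in the mutant library. Its paralogue Srrm3, which also acts on microexons, had TPM values of 15.3 and 2.53, so the 2 genes kept nearly the same proportion, 1.07 in each library. Rest had TPM values of 14.1 and 27.6, or 1.96-fold higher (1.87 to 2.06), which is short of the 2-fold rule. It passed 2-fold under all 7 other scalings, from 2.05-fold without mitochondrial and hemoglobin genes to 2.63-fold after the length and GC correction. Srrm4 per Rest was thereby 11.9-fold lower (10.8 to 13.2), from 1.17 to 0.0977.

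Polypyrimidine tract-binding proteins are the side of the contrast that changes places as neurons form. Ptbp1 (chromosome 10, 79854432 to 79864435, plus strand) was the most abundant of the 10 regulators in both libraries, with 17862 and 25630 reads and TPM values of 256 and 312. It was 1.22-fold higher (1.20 to 1.24) in the mutant library. Ptbp2 (chromosome 3, 119718741 to 119784647, minus strand), found in neurons, neural progenitors and the testis, had TPM values of 69.4 and 67.2, a ratio of 0.969 (0.936 to 1.003). Ptbp2 per Ptbp1 was 0.271 in the E14 library and 0.215 in the other, a change to 0.795 of its value (0.764 to 0.827).

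The direction of the Ptbp2 difference rested on the scaling. It had 5957 reads in the E14 and 7383 in the mutant library, and its log2 difference was above 0 under 6 of 9 alternatives, between 0.020 and 0.35. The effective transcript length, taken from reads per unit of FPKM, was 3962 nt in the E14 library and 4551 nt in the other, 1.15-fold longer, while the median ratio over all genes that reached a TPM of 10 was 1.003. Among the other regulators this ratio ranged from 0.889 for Elavl2 to 1.11 for Rbfox1 and Rbfox3. Ptbp1 was higher under all of these alternatives, with log2 differences from 0.28 to 0.56. The third member of the family, Ptbp3, which is expressed in blood and other non-neuronal cells, had TPM values of 13.5 and 33.3 and was called higher at 2.48-fold (2.36 to 2.60).

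Ptbp1 is known to lower Ptbp2 by causing exon 10 of its transcript to be skipped, which shifts the reading frame, so the exon is shown here as the link between the 2 genes. The exon has 34 nt and lies at chr3:119724612-119724645 of GRCm38 on the minus strand, as exon 10 of 14. Of 3 annotated transcripts that span it, 2 include it, and the other, which lacks it, is annotated as a target of nonsense-mediated decay. Capitals mark the exon, and 30 nt of exons 9 and 11 stand in lower case on either side.
Ptbp2 exon 10: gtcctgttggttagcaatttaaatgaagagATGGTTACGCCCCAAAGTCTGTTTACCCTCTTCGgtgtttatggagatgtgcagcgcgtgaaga
The deposited values are per gene and do not separate transcripts with and without this exon.

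**Figure D3:**
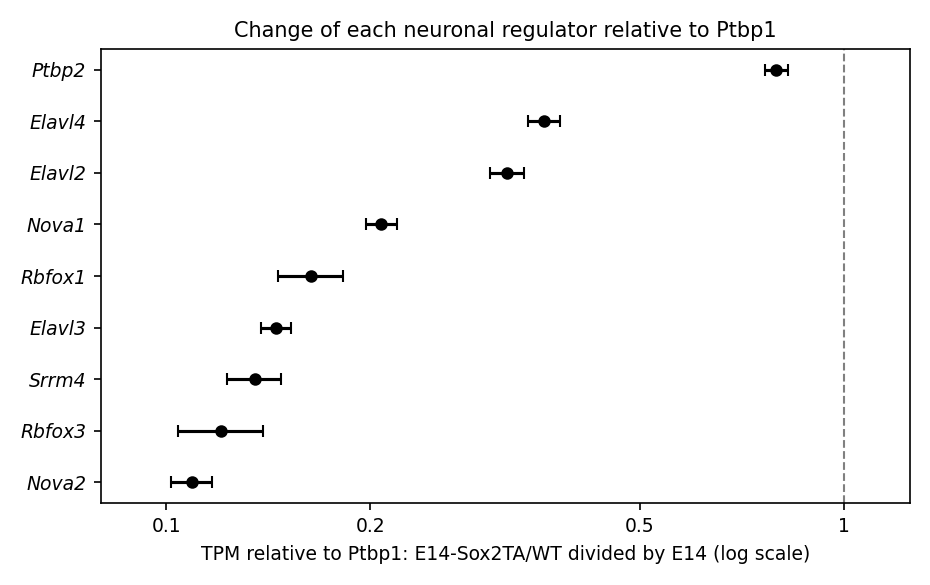
Ratio of TPM to that of Ptbp1 in the E14-Sox2TA/WT library, divided by the same ratio in the E14 library (log axis), with 95% counting intervals as bars and the dashed line at no change. All 9 neuronal regulators lie left of the line, from 0.795 of the E14 value for Ptbp2 to 9.17-fold lower for Nova2 (6.03-fold lower after the length and GC correction).

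In the order of TPM, the E14 library ran from Ptbp1 through Elavl3, Nova1, Ptbp2, Elavl4, Elavl2, Nova2, Srrm4 and Rbfox3 to Rbfox1. Neighbours with overlapping counting intervals were Nova1 and Ptbp2, and Rbfox3 and Rbfox1. In the mutant library the order was Ptbp1, Ptbp2, Elavl4, Nova1, Elavl2, Elavl3, Nova2, Srrm4, Rbfox1 and Rbfox3, with overlap between Elavl2 and Elavl3 and between Srrm4 and Rbfox1. Elavl3 thus stood in place 2 in the former and place 6 in the latter. The genes nearest to Elavl3 in the plane of log2(TPM + 1) of the 2 libraries were Ndrg4 (90.6 and 15.9), Celf4 (84.2 and 15.9) and the transcribed pseudogene Pisd-ps2 (90.5 and 16.3), at distances of 0.056 to 0.078. Those nearest to Ptbp1 were Hnrnpa3 (253 and 312), Park7 (264 and 312) and Vdac2 (249 and 319), at distances of 0.018 to 0.052. With 2 libraries, this likeness holds 2 values per gene.

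**Figure D4:**
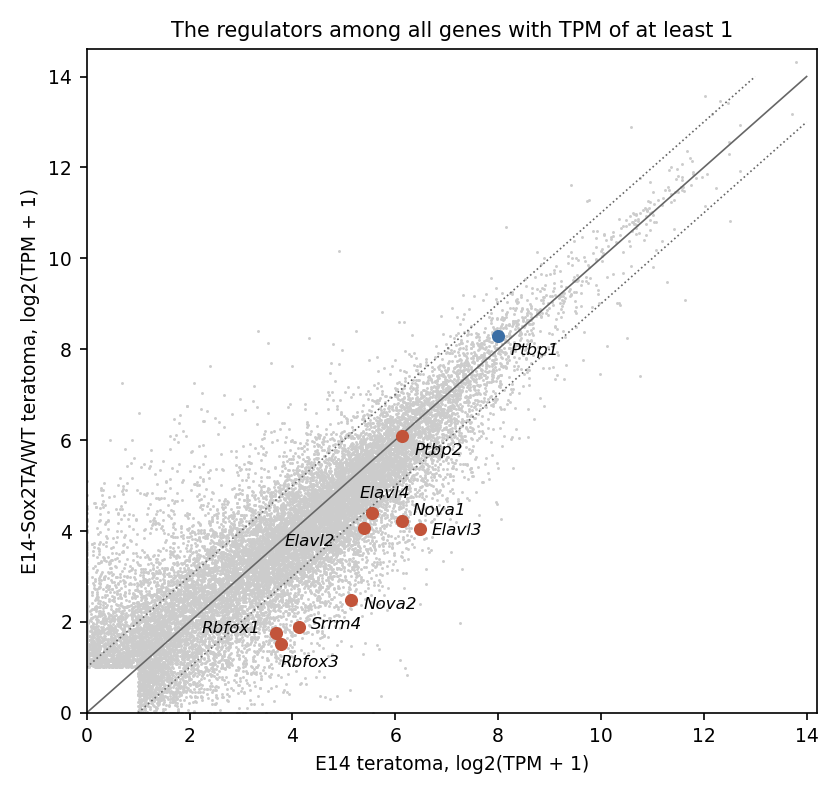
log2(TPM + 1) in the E14-Sox2TA/WT library against the E14 library for 18558 genes (grey), with the 9 neuronal regulators in red and Ptbp1 in blue. The solid line marks equal values and the dotted lines a difference of 1 on this scale; 8 neuronal regulators lie under the lower dotted line, and Ptbp2 and Ptbp1 lie near the solid line.

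Other genes of the same pathway were taken from lists of known regulators. Among 22 further tissue-enriched splicing regulators, 14 were lower and 8 were higher by any amount, against 52.5% lower and 47.5% higher among the genes whose TPM reached 1. Of the 17 with a TPM of at least 10, 6 were called lower and 0 higher. Celf3, Celf5, Celf6 and Srrm3 passed this filter through the E14 library alone, and of the 12 that reached a TPM of 10 in both libraries, 2 were called lower. Celf5, a CELF protein of the nervous system, had TPM values of 45.0 and 4.40 and was 10.2-fold lower, and Celf3, also neuronal, had 61.1 and 8.67 and was 7.05-fold lower. Msi1, an RNA-binding protein of neural progenitors, had TPM values of 176 and 65.2 and is counted again below among progenitor markers, whereas the broadly expressed Khdrbs1 had 104 and 112. Khdrbs3, a neuronal relative of Khdrbs1, had 111 and 60.7.

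The 10 genes that surround Ptbp1 in regulation did not share a direction, with 7 lower and 3 higher. Mir124a-1hg, a host transcript of miR-124, the neuronal microRNA that represses Ptbp1, had TPM values of 39.5 and 6.89 and was 5.74-fold lower (5.31 to 6.22). It was the only one of the 8 with a TPM of at least 10 to be called on TPM, and it passed the filter through the E14 library. Mir124-2hg stood at 7.22 and 6.24 and Mir9-3hg at 9.06 and 5.09. Of the phosphatases that act with Rest, Ctdsp1 had 53.8 and 50.6, Ctdsp2 63.3 and 71.1, and Ctdspl 8.08 and 11.0, and the Rest corepressor Rcor1 had 13.9 and 10.7. The Ptbp1 partners Raver1 (56.4 and 49.2) and Raver2 (13.2 and 10.9) were within 2-fold.

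Genes of the general splicing machinery differed less. Of 27 SR proteins and core splicing factors, 17 were higher and 10 lower, with 1 call in each direction, and their median log2 difference was 0.21. Tra2a, which activates exons through GA-rich enhancers, had TPM values of 129 and 259 and was called higher at 2.005-fold, with an interval on both sides of 2 (1.94 to 2.07), and at 1.499-fold once corrected for length and GC content it was not called. The SR-related protein Srrm2, a component of nuclear speckles, had 194 and 78.6 and was called lower at 2.47-fold (2.43 to 2.51), which became 1.44-fold after that correction. The SR proteins Srsf2 (283 and 419) and Srsf3 (331 and 515) and the Sm protein Snrpb (328 and 392) were within 2-fold. Of 23 hnRNP proteins, 18 were higher and 5 lower, with a median of 0.25 and 1 call, for Pcbp2 (251 and 523). Pcbp2 was 2.08-fold higher on TPM and lost the call with counts scaled by TMM (1.88-fold) or median-of-ratios (1.89-fold) and after the length and GC correction (1.94-fold). The most abundant of them, Hnrnpa1, which represses many exons, had TPM values of 1073 and 1470. Hnrnpa2b1 (827 and 982), Hnrnpk (717 and 720) and Syncrip (56.2 and 94.7) were also within 2-fold.

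Transcripts that the neuronal regulators are known to bind or splice were mostly lower. Of 15 such genes, 14 were lower, and 10 of the 13 with a TPM of at least 10 were called lower, with a median log2 difference of -1.51. Of the 9 that reached a TPM of 10 in both libraries, 6 were called lower. Gap43, the growth cone protein whose message is stabilised by Elavl4, had TPM values of 474 and 106 and was 4.47-fold lower. Gabbr1, a GABA-B receptor subunit, had 109 and 21.4, and Glra2, a glycine receptor subunit spliced under Nova, had 17.8 in the E14 library and was 11.9-fold lower (9.93 to 14.4). Grin1, the obligate NMDA receptor subunit, had 21.2 and 1.89. Agrn, whose neuronal exons depend on Nova, had 147 and 64.9. These are amounts per gene, and exon use was not analysed here.

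**Figure D5:**
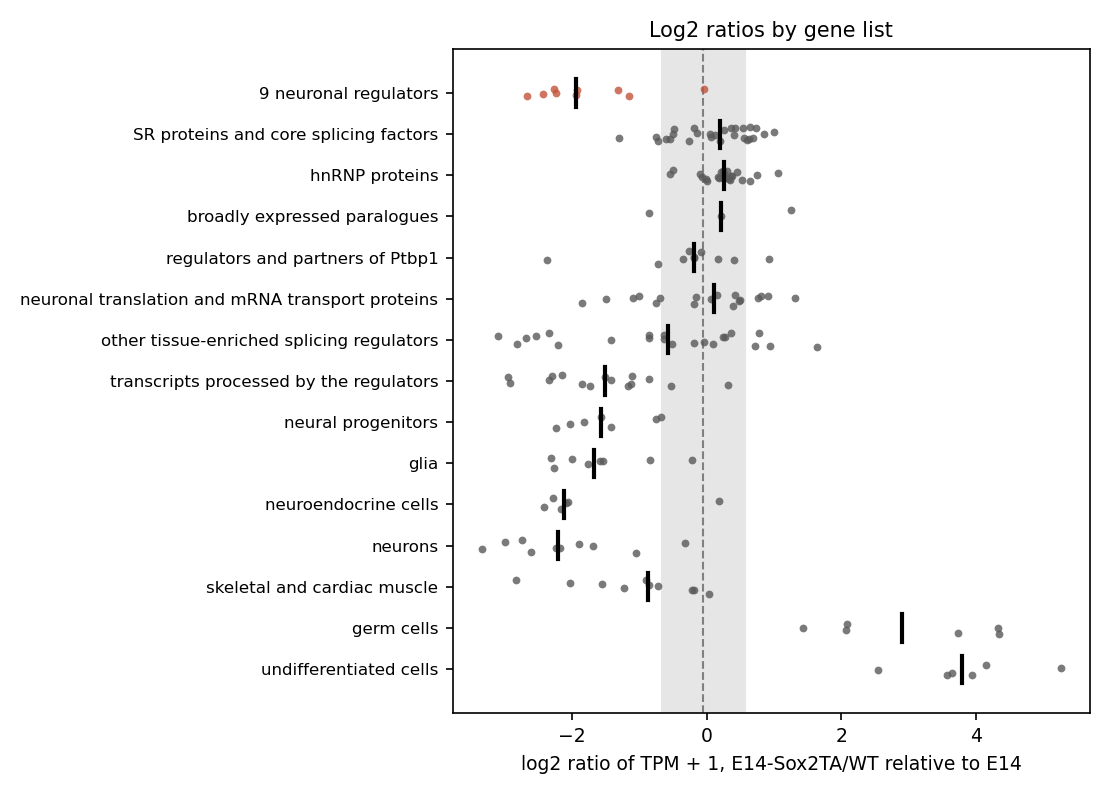
log2 difference in TPM + 1, E14-Sox2TA/WT minus E14, for the genes of each list (points, spread vertically for sight only) with the list median (bar). The dashed line and the grey band give the median and the middle 50% of all genes that reached a TPM of 1, and the photoreceptor and pineal list, with 1 such gene, is left out. The lists of neurons and neuroendocrine cells have medians of -2.21 and -2.12, hnRNP proteins 0.25, and undifferentiated cells 3.78.

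Markers of neurons differed in the same direction as the 8 reduced regulators. All 10 neuron markers were lower, 9 of them by more than 2-fold, and their TPM summed to 2903 and 465, with none at 0. Tubb3, a neuronal tubulin, was 10.1-fold lower (9.88 to 10.4), and Stmn2, a growth-associated microtubule regulator, was 3.72-fold lower (3.61 to 3.82). The vesicle protein gene Syt1 had TPM values of 50.8 and 5.53, and the neurofilament gene Ina had 205 and 32.8. Against the neuron marker median of -2.21 on the log2 scale, Rbfox3 differed by -0.049 and Srrm4 by -0.028, and Elavl3 by -0.22 and Nova2 by -0.46. Nova1 and Rbfox1 were reduced less, by 0.28 and 0.27, Elavl2 by 0.89, Elavl4 by 1.06 and Ptbp2 by 2.16. These distances depended on the scaling and on the amount added to TPM. With 0.1 added, the marker median was -2.25, against -2.70 for Rbfox3, -2.56 for Srrm4 and -2.28 for Rbfox1. With 5 added, the marker median was -2.04, against -1.36, -1.47 and -1.20 in the same order. After the length and GC correction, Rbfox3 was reduced less than the marker median by 0.45, Srrm4 by 0.59, Elavl3 by 0.22 and Nova2 by 0.35, and Nova1 differed by -0.058. Rbfox3 and Srrm4 also lay above that median on FPKM, by 0.22 and 0.18.

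Other sources of the same transcripts also differed between the libraries. All 7 neural progenitor markers were lower, with summed TPM of 4398 and 1763. Among them Fabp7 had 2497 and 708, Vim 1530.0 and 914, Sox1 48.3 and 9.55, and Hes5 52.8 and 12.2. All 8 glial markers were lower, with summed TPM of 517 and 175, among them Gfap (137 and 76.4), Mbp (112 and 27.4), Olig1 (88.2 and 17.6) and Olig2 (50.2 and 9.38). Of the 6 neuroendocrine markers, 5 were lower and 1 was higher, with summed TPM of 470 and 97.2. All 5 with a TPM of at least 10 were called lower, against 18.7% of all genes with such a TPM, and 4 of them reached it in both libraries. Among the 5 were Chgb (169 and 34.1), Scg3 (119 and 21.6) and Scg2 (97.2 and 22.2). Of the 10 markers of skeletal and cardiac muscle, where Rbfox1 is also expressed, 9 were lower, with summed TPM of 413 and 203. Those named were Mylpf (185 and 112), Actc1 (94.7 and 31.6), Acta1 (33.6 and 18.2), Myh3 (24.7 and 5.34) and Myh8 (19.6 and 1.90). All 6 markers of undifferentiated cells were higher, with summed TPM of 81.0 and 1831, as were all 6 germ cell markers, with 7.68 and 159. Of photoreceptor and pineal markers, Otx2 had TPM values of 45.2 and 36.4, Sag had 0.199 and 0.353, Rcvrn had 0 reads in both libraries, and Crx had 0 in the E14 library, where a count of 0 allows up to 3 reads. The part of these cell types in the differences of the regulators was not tested.

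The promoters of 4 regulators are shown as examples, Elavl3 and Srrm4 from the 8 that were called lower, and Ptbp1 and Ptbp2, which were not called. Whether these sequences bear on the differences was not tested. Each sequence holds the 250 bases before a RefSeq transcription start on GRCm38, at chr9:22052024-22052273 (minus) for Elavl3, chr5:116591818-116592067 (minus) for Srrm4, chr10:79854182-79854431 (plus) for Ptbp1 and chr3:119783389-119783638 (minus) for Ptbp2. Capitals mark matches, on either strand, to the E boxes CAGCTG and CAGATG, the GC box GGGCGG, the TATA box TATAAA, the SOX-type motif CATTGT, and CAGCACC and GGACAG, the left and right parts of the element that Rest binds.
Elavl3: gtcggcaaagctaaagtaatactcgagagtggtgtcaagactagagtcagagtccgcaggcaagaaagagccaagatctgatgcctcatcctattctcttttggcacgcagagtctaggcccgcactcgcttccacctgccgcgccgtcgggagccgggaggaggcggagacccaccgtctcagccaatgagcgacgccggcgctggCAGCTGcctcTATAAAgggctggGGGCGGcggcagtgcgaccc
Srrm4: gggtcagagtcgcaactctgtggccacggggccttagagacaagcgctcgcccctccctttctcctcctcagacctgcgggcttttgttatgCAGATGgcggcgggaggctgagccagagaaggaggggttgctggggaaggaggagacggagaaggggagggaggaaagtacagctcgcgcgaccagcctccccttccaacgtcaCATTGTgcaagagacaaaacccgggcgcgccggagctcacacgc
Ptbp1: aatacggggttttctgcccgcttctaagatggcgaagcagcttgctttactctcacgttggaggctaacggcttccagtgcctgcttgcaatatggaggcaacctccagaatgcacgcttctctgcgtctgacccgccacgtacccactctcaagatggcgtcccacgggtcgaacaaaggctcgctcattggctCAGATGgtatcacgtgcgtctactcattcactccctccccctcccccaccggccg
Ptbp2: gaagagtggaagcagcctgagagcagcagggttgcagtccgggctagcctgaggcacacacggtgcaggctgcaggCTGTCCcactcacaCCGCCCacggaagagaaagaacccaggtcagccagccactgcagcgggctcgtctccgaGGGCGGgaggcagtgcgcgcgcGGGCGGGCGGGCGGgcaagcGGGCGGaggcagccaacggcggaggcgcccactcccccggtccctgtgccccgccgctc
All 10 regulators matched the promoter table, with 19 windows for their alternative starts, out of 32851 windows of the same length for 27025 genes. Some windows of Elavl2 and of Elavl4 overlap each other, so the same site can be counted in more than 1 window. CAGCTG occurred in 5 of the 19 windows (Elavl3, Elavl4, Nova1 and Rbfox1), and in 13.0% of all windows. CAGATG occurred in 5 of the 19 (Elavl4, Srrm4 and Ptbp1), and in 14.4% of all windows. CATTGT occurred in 2 (Elavl4 and Srrm4), against 10.7% of all windows. GGGCGG occurred in 8 (Elavl2, Elavl3, Nova2 and Ptbp2), against 32.7%. TATAAA was found in 1, for Elavl3, against 12.4%. Of the parts of the Rest element, GGACAG was found in 2, for Elavl2 and Ptbp2, against 18.7%, and CAGCACC in 0, against 5.73%. Both parts of the Rest element 2 bases apart were in 11 windows of all genes and in 0 of these. A match is a stretch of letters in the window and does not show binding.

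Reads counted on genes numbered 50529171 for E14 and 49030281 for the mutant library, and the 10 regulators had at least 1277 and 232 reads. Sox2 itself had TPM values of 246 and 130, and gene-level values do not separate the T258A allele. The regulators lie on 9 chromosomes, whose median log2 differences relative to all genes were between -0.11 and 0.079. The medians farthest from all genes were those of chromosomes 8 (-0.43), where Tubb3 and Elavl1 lie, 15 (0.41), where Rbfox2 lies, and Y (-2.88 over 8 genes), none of which holds any of the 10. Genes of 1 family shared no stretch of 50 nt with each other in the reference transcripts. For Ptbp1, 20.7% of the exon sequence is overlapped on the opposite strand, by Gm17134, E130317F20Rik and the neuronal gene Plppr3. Plppr3 had 8128 and 2062 reads and was 4.44-fold lower in TPM, the opposite direction to Ptbp1.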

How the data were processed

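PolyA RNA of teratomas harvested on day 14 was sequenced, giving 1 library for E14 and 1 for E14-Sox2TA/WT. The authors deposited whole-number read counts per gene without normalization, FPKM, in which counts are divided by length and sequencing depth, and TPM, in which they are set to a common total. The submitters' processing notes name bcl2fastq 2.20.0, Trimmomatic, HISAT2 2.1.0 and StringTie 2.1.3b, and the builds hg19 and mm10, without their roles. Positions and sequences came from RefSeq and GENCODE on GRCm38, the build of mm10, and 45679 of 45777 gene IDs matched.

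TPM ratios were computed with 95% Clopper-Pearson intervals of the read counts, and log2 differences after 1 was added to TPM. Calls followed the study's stated rule (above 2-fold, with TPM reaching 10 in either library). They numbered 2167 lower and 1253 higher, more in each direction than the study reports for its teratomas. With 1 library per group, no p-value was given. The regulators and 15 gene lists were chosen with earlier results of these data known. Named were the 10 regulators, all paralogues and genes around Ptbp1, from each other list the 3 highest in TPM and the 2 most changed among genes that reached a TPM of 10, and the 3 genes nearest to Elavl3 and to Ptbp1. Srrm3, Celf6, Plppr3, E130317F20Rik, Sox2, Crx and Rcvrn were named after their values were seen, and 1 gene of the lists is not reported here. Alternatives were FPKM, counts scaled by library total, by TMM (edgeR 4.0.16) or by median-of-ratios size factors (DESeq2 1.42.0), TPM without mitochondrial and hemoglobin genes, centring, correction for length and GC content, other pseudocounts, filters and folds. The ratio and interval steps were tested on simulated data. Software was R 4.3.3 and Python 3.11.15 with scipy 1.17.1, matplotlib 3.10.9, pandas 2.3.3 and numpy 2.4.6.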

Additional observations from a re-analysis of the deposited data

How the results depend on the processing

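No paired analysis was possible because each group has 1 library, which also means that no library could be left out. Of 90 alternative log2 differences of the 10 regulators, 84 kept their sign, and the other 6 were those of Ptbp2. The median of the 9 neuronal regulators, -1.94 on TPM, was -1.67 on FPKM, -1.77 with counts scaled by library total, -1.76 when centred on all genes, -1.58 after correction for length and GC content, -2.28 with 0.1 added and -1.36 with 5 added. Relative to Ptbp1 the median of -2.22 became -2.57 with 0.1 added and -1.64 with 5 added. The Ptbp1 ratio of 1.22 was 1.40 on FPKM, 1.48 by library total, 1.35 by TMM, 1.36 by median-of-ratios size factors, 1.28 without mitochondrial and hemoglobin genes, 1.38 when centred and 1.44 after the length and GC correction. Ptbp2 relative to Ptbp1, 0.795, was 0.864 with counts under each of the 3 scalings and 0.627 after that correction. The 8 neuronal regulators called lower became 4 when a TPM of at least 10 was required in both libraries, since Nova2, Rbfox1, Rbfox3 and Srrm4 reach it in the E14 library only, and 7 on FPKM or by library total, where Elavl4 lost its call. Over the gene lists, 48 genes were called lower and 13 higher. The share of list genes called was not computed over all lists together, while 18.7% and 10.8% of all genes with a TPM of at least 10 were called. Under the other scalings the list counts ranged from 43 to 47 lower and from 13 to 17 higher (43 and 17 on FPKM and by library total). With a TPM of at least 10 required in both libraries, an alternative chosen after seeing the data, they were 29 and 7, without a matching count over all genes. The length and GC correction turned the Nova2 to Nova1 comparison. The share of mitochondrial genes in TPM was 4.99% and 9.22%, and the median log2 difference over genes that reached a TPM of 10 was -0.18 on TPM and 0.0080 on FPKM. Counting intervals do not cover the spread between tumours.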

Other observations

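Proteins that carry mRNA to dendrites and control its translation were a further list of 18 genes, of which 8 were lower and 10 higher in the mutant library. Of the 16 with a TPM of at least 10, 3 were called lower and 1 higher, against 18.7% and 10.8% of all genes with such a TPM. The share called lower was thus close to that of all genes. Of the 13 that reached a TPM of 10 in both libraries, 2 were called lower and 1 higher. Cyfip2, a partner of the fragile X protein FMRP, had TPM values of 47.4 and 12.4 and was 3.82-fold lower (3.64 to 4.01), and Stau2, which transports mRNA in neurons, had 45.5 and 15.6 and was 2.92-fold lower (2.74 to 3.12). The broadly expressed Caprin1 (203 and 226), Fxr1 (120 and 168) and Fxr2 (76.4 and 68.4) were within 2-fold.

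The germ cell markers include genes of RNA-binding proteins, such as Dazl, and genes of meiosis. Dazl, which promotes translation in germ cells, had TPM values of 3.12 and 53.6, 17.2-fold higher (15.0 to 19.8). Stra8, which is needed to enter meiosis, had 2.26 and 64.4, and Sycp3, a part of the synaptonemal complex, had 0.342 and 26.0. Pluripotent mouse cells can also express some of these genes, and in the same libraries Pou5f1 had 19.0 and 304, Nanog 8.37 and 116, Zfp42 3.88 and 85.2, and Dppa5a 29.1 and 1144. Elavl2, which is also expressed in germ cells, was lower in the mutant library, as given above.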
